A study of Mus musculus with 4 samples.

Results

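Pou5f1, Sox2, Nanog, Sall4, Esrrb, Tfcp2l1, Nr5a2 and Nr0b1, transcription factors that hold mouse embryonic stem cells in the pluripotent state, were followed in a comparison of Kdm2b knockdown with control cells. All 8 were found among the 19938 genes tested, and each was read by 1 probe set whose annotation gives that symbol alone, so no choice between probe sets was needed. The cells were E14 mouse embryonic stem cells of the inbred 129 strain. Both groups, 2 arrays of control cells and 2 of Kdm2b knockdown cells, grew on gelatin in medium with LIF (leukemia inhibitory factor, 1000 units/ml) and 15% serum. The treatment protocol, given for both groups, was lentiviral transduction at a multiplicity of infection of 10 with puromycin at 2 µg/ml from 48 h on, and the labels do not say what the control cells' vector carried or when RNA was taken. All arrays come from a single cell line, and nothing in the labels says that replicates were separate cultures, so the p-values measure the spread between these arrays, which may be technical. The series asks whether Kdm2b keeps the stem cell state by bringing Polycomb repressive complex 1 to CpG islands of lineage genes.

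Pou5f1 (also called Oct4) and Sox2 bind DNA side by side at joined POU and SOX sites and, with Nanog, activate stem cell genes, themselves included, while holding back lineage genes. Sall4, a zinc finger protein, works with them. Esrrb, Nr5a2 and Nr0b1 are orphan nuclear receptors, and Tfcp2l1 is a grainyhead-like factor downstream of LIF and STAT3; these support the naive state, in which stem cells resemble the epiblast of the blastocyst before implantation. Kdm2b, a histone demethylase, reaches chromatin through a CxxC zinc finger that recognises unmethylated CpG.

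Because Kdm2b recognises CpG, the 250 bases upstream of each factor's annotated start were read from RefSeq (GRCm38.p6). Of the 8 factors, 7 had an entry, with 11 windows in all. The upstream parts of 4 are printed 5′ to 3′ with each CpG in capitals. They are Sox2 (chr3:34649745-34649994, plus strand) and Nanog (chr6:122707239-122707488, plus strand), which had the most and nearly the fewest CpG among the factors, and Tfcp2l1 (chr1:118627695-118627944, plus strand) and Nr5a2 (chr1:136953631-136953880, minus strand), whose log2 fold changes were the lowest and the highest.
Sox2: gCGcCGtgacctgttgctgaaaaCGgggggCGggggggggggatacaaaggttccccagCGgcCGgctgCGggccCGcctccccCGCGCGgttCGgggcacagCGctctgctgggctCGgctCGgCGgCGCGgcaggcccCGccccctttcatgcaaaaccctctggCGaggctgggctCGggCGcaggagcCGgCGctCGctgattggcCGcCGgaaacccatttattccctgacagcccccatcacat
Nanog: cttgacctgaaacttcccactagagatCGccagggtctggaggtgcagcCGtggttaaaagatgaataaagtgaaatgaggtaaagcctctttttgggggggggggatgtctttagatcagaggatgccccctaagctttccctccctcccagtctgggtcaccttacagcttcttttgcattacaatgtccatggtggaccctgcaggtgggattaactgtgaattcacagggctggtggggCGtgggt
Tfcp2l1: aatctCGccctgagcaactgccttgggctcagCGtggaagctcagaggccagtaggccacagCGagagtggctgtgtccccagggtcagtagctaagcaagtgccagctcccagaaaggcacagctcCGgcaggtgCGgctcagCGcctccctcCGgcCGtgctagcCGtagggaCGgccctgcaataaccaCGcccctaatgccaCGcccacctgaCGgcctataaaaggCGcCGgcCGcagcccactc
Nr5a2: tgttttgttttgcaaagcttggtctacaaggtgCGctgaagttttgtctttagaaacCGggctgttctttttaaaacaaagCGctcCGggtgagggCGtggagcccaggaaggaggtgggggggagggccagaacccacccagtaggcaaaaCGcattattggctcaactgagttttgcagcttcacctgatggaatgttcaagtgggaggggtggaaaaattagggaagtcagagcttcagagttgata

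The Sox2 stretch held 27 CpG. Of the 19177 windows of genes tested, 10.7% held more, and their median was 11. Its ratio of observed to expected CpG, which corrects the count for C and G content, was 0.833, beside a median of 0.576 over all windows. Tfcp2l1 followed with 16 CpG (ratio 0.609) and Nr0b1 with 11 (ratio 0.546). For Nr0b1 the count equalled the median, while the ratio lay below the median ratio. The remaining factors with an entry lay below both medians. Pou5f1 had 8 and 6 CpG in its 2 windows, Esrrb 6 and 3, this Nr5a2 window 6 and the other one 2, and Nanog 3 and 2. The counts thus ran from 2 to 27 among these factors. The log2 fold change after knockdown, knockdown minus control, in order of falling CpG count, was -0.14 for Sox2, -0.24 for Tfcp2l1, 0.05 for Nr0b1, 0.08 for Pou5f1, -0.165 for Esrrb, 0.28 for Nr5a2 and 0.14 for Nanog. For Tfcp2l1, 33.8% of all windows held more CpG. For factors with 2 windows the order takes the larger count, and Esrrb and Nr5a2 tie at 6. Whether the changes follow the CpG count was not tested, and where Kdm2b binds was not analysed here.

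Of the POU site TTTGCAT, searched on both strands of the 300-base windows (the 250 bases and the 50 that follow), 1 match lay in the Sox2 window and 1 in Nanog, where both windows cover it. Of all windows, 4.15% hold one. The SOX site CATTGTT, on either strand, matched once, in a Pou5f1 window (2.84% of all windows), and the orphan receptor site AAGGTCA matched in no window of the factors (3.82% of all windows). In Nanog the POU match stands 1 base from a match to the shorter SOX core CATTGT on the other strand, the joined arrangement known from this promoter. The shorter core contains the start of the longer site, was chosen after the sequence was seen, and occurs in 10.1% of all windows. The stretch is chr6:122707396-122707438, plus strand, GRCm38.p6, with both matches in capitals.
Nanog: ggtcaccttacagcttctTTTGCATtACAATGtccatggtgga

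Array medians lay between 8.49 and 8.55 on the log2 scale, and replicate arrays correlated at 0.9963 or above across probe sets. Kdm2b stood at 10.74 and 10.64 in control and 9.20 and 9.19 in knockdown cells, 35.5% of the control level (adjusted p = 0.0039, limma). Its adjusted p was 0.196 to 0.258 with an array left out. All 8 factors lay above the median gene, which had a mean log2 value of 9. The cells thus carried the RNA of the defining stem cell factors in both groups.

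After Kdm2b knockdown, none of the 8 factors passed the threshold, an adjusted p under 0.05 in limma over all genes, in either direction. Of all genes tested, 12.2% passed it, 5.00% as higher and 7.19% as lower. Before adjustment, 3 of the 8 had p under 0.05, namely Nr5a2, Tfcp2l1 and Esrrb. Of the log2 fold changes, 4 were positive and 4 negative, from -0.24 (Tfcp2l1) to 0.28 (Nr5a2), with a median of 0.02 beside 0.03 over all genes; with each array centred on its median these were -0.02 and -0.01. The median size was 0.14, close to the 0.12 of all genes. The 95% intervals of the 8 lay between 0.739-fold and 1.39-fold of control, and missing the threshold does not show that a factor did not change. For 6 of the 8, knockdown and control arrays did not overlap, and the same held for 58.8% of all genes.

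**Figure D1:**
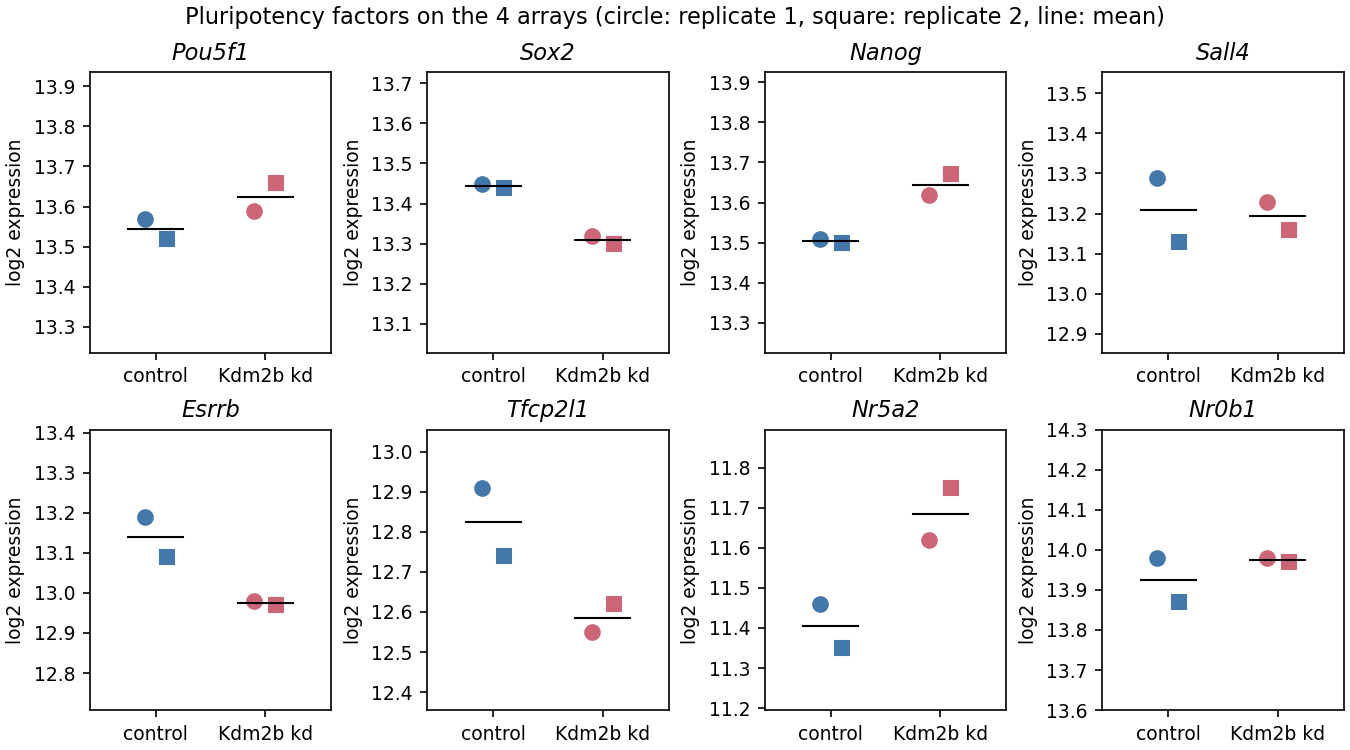
Log2 expression of each factor on the 4 arrays, with control in blue, knockdown in red, circles for replicate 1, squares for replicate 2 and lines for group means; every vertical axis spans 0.7 log2 units around that gene's mean. The groups are apart for 6 factors and overlap for Sall4 and Nr0b1.

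Among the core factors, Pou5f1 read 13.57 and 13.52 in control and 13.59 and 13.66 in knockdown cells. Both knockdown arrays lay above both controls, but by 0.02, less than the 0.05 between the controls. The log2 fold change was 0.08 (95% interval -0.08 to 0.24, adjusted p = 0.451, limma).

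Sox2, the DNA-binding partner of Pou5f1, read 13.45 and 13.44 in control and 13.32 and 13.30 in knockdown cells. The knockdown arrays were both lower, and the gap of 0.12 between the groups was wider than the 0.01 and 0.02 between replicates. The log2 fold change of -0.14 (95% interval -0.28 to 0.01) corresponds to a 1.10-fold lower level (adjusted p = 0.196, limma).

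Nanog, a homeobox factor whose level varies from cell to cell in serum culture, read 13.51 and 13.50 in control and 13.62 and 13.67 in knockdown cells. The knockdown arrays were both higher, by at least 0.11, against 0.01 and 0.05 between replicates. The log2 fold change was 0.14 (95% interval -0.01 to 0.29, adjusted p = 0.192, limma). Nanog has related copies in the mouse genome, and whether its probes also read them was not examined. Sox2 and Nanog thus stood on opposite sides of their controls with replicates that lay close together, and neither passed the test.

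Sall4, a spalt-like zinc finger factor, read 13.29 and 13.13 in control and 13.23 and 13.16 in knockdown cells. Both knockdown values fell between the controls, and the log2 fold change of -0.02 (95% interval -0.21 to 0.18, adjusted p = 0.919, limma) had the opposite sign without control replicate 1 (0.065) or knockdown replicate 2 (0.02).

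Among the nuclear receptors, Nr5a2 (also called Lrh1), which can activate Pou5f1, read 11.46 and 11.35 in control and 11.62 and 11.75 in knockdown cells. Both knockdown arrays were higher, by at least 0.16, beside 0.11 and 0.13 between replicates. Its log2 fold change of 0.28 (SE 0.077, 95% interval 0.09 to 0.47) is a 1.21-fold higher level and the largest change among the 8; its adjusted p of 0.0716 in limma came nearest to the threshold.

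Esrrb, a receptor that works with Nanog and Pou5f1 and is a target of Wnt and Gsk3 signalling through Tcf7l1, read 13.19 and 13.09 in control and 12.98 and 12.97 in knockdown cells. Both knockdown arrays were lower. The log2 fold change of -0.165 (SE 0.066, 95% interval -0.33 to -0.0025) did not pass after adjustment (adjusted p = 0.163, limma). Nr0b1 (also called Dax1), which lacks the usual receptor DNA-binding domain and interacts with other receptors and with Pou5f1, read 13.98 and 13.87 in control and 13.98 and 13.97 in knockdown cells. The groups overlapped, with a log2 fold change of 0.05 (95% interval -0.12 to 0.22, adjusted p = 0.664, limma), which was -0.005 without control replicate 2.

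Tfcp2l1, which LIF induces through STAT3, read 12.91 and 12.74 in control and 12.55 and 12.62 in knockdown cells. Both knockdown arrays were lower, by at least 0.12, while the controls differed by 0.17. The log2 fold change of -0.24 (SE 0.08, 95% interval -0.44 to -0.04) is a 1.18-fold lower level, with an adjusted p of 0.11 in limma. Its value ran from -0.325 without control replicate 2 to -0.155 without control replicate 1.

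**Figure D2:**
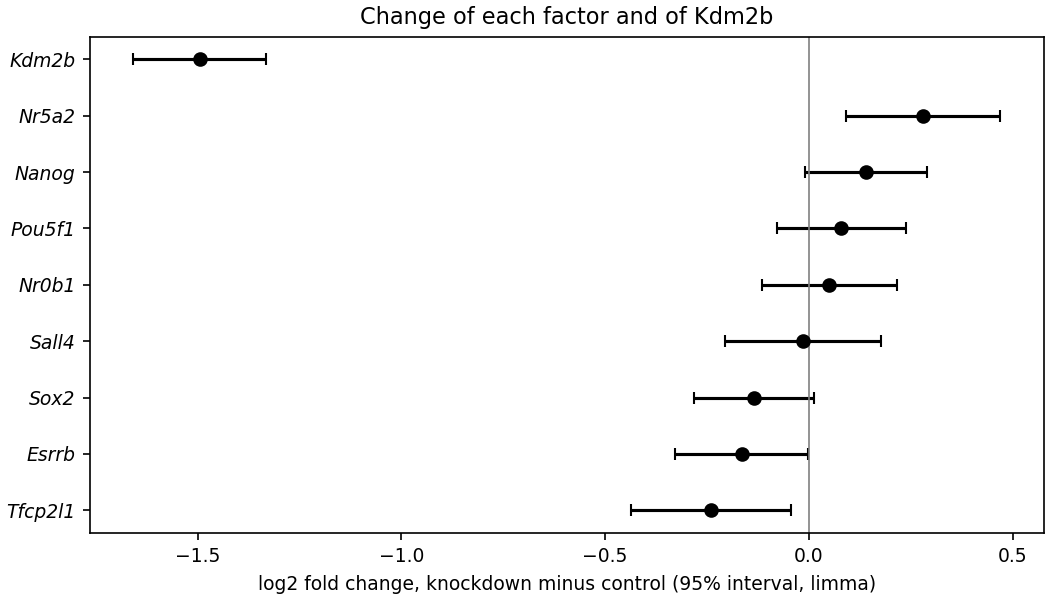
Log2 fold change, knockdown minus control, of each factor and of Kdm2b, with points for the estimate and bars for the 95% interval from limma (2 arrays a group). The factors run from -0.24 for Tfcp2l1 to 0.28 for Nr5a2, far from the -1.50 of Kdm2b.

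Taken within an array, the differences between factors shifted by at most 0.52 on the log2 scale. Such differences cancel an offset shared by all genes of an array, but not scaling that varies with the level. The largest shift was that of Tfcp2l1 against Nr5a2, the factors with the lowest and the highest fold change, whose log2 difference went from 1.45 and 1.39 in control to 0.93 and 0.87 in knockdown cells, which is -0.52 with 0.06 between replicates in each group. The difference between Esrrb and Nr5a2 shifted by -0.445, from 1.73 and 1.74 to 1.36 and 1.22. That between Sox2 and Nanog shifted by -0.275, from -0.06 on both control arrays to -0.30 and -0.37. Pou5f1 and Sox2, which bind as a pair, shifted by 0.215, from 0.12 and 0.08 to 0.27 and 0.36. By contrast, Sox2 against Esrrb shifted by 0.03 and Pou5f1 against Nr0b1 by 0.03, and their groups overlapped. These shifts were not tested.

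The size of change was also set beside that of genes read at the same level. Of the 8, 6 had a mean log2 value of at least 13, on arrays whose highest value was 14.69 to 14.74. Among the 546 genes at that level, 2.38% passed the threshold, the median size of change was 0.065 and the largest 0.595. Among the 2858 genes with means from 9 to 10, 21.9% passed and the median size was 0.16. Among the 6547 genes below 8, 3.6% passed and the median size was 0.085, so the size did not follow the level in one direction. Tfcp2l1 lay among the 1436 genes from 12 to 13, of which 9.89% passed, and Nr5a2 among the 2351 genes from 11 to 12, of which 16.8% passed. Read against genes of their own level, 6 of the 8 factors changed by more than the median size, with Sall4 and Nr0b1 below it. For Esrrb, 13% of the genes at its level had a larger change, for Tfcp2l1 17.3%, for Nanog 17.4%, for Sox2 18.7% and for Nr5a2 22.1%. The part of the level in the factors' changes was not tested.

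**Figure D3:**
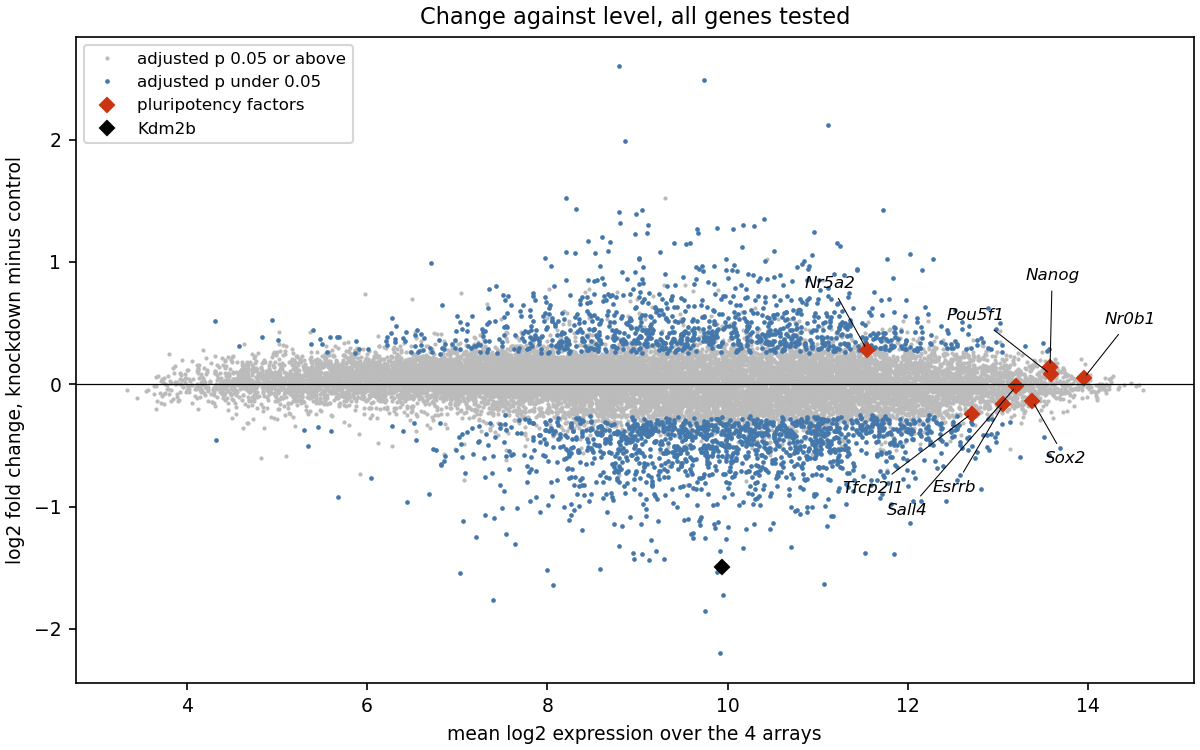
Log2 fold change, knockdown minus control, against the mean log2 expression over the 4 arrays for all 19938 genes, with genes at an adjusted p under 0.05 (limma) in blue, the 8 factors as red diamonds and Kdm2b as a black diamond. The cloud narrows above a level of 13, where 6 of the factors lie and 2.38% of genes passed.

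Around the factors, other genes of the stem cell network did pass the threshold, although limma called 0 of all genes with any array left out (3495 to 4215 at an unadjusted p under 0.05). Of 29 other regulators measured from a pluripotency list, 3 were higher, 3 lower and 23 neither, with a median log2 fold change of 0.045. That list also holds repressors such as Rest and Tcf7l1 and the primed epiblast gene Otx2. Of all genes tested, 5.00% passed as higher and 7.19% as lower, and no list here or below was tested against these shares. Gbx2, a homeobox factor downstream of LIF, read 11.38 and 11.60 in control and 12.45 and 12.66 in knockdown cells (log2 fold change 1.07, SE 0.11, adjusted p = 0.0071, limma). Foxd3, a forkhead factor of stem cells and epiblast, rose by 1.09 (SE 0.07). Klf2, a Krüppel-like factor of the naive state, fell by 0.75 (SE 0.068) and Rest, a repressor of neuronal genes, by 0.44 (SE 0.074). Klf4, another target of LIF and STAT3, had a log2 fold change of 0.30 (adjusted p = 0.0514), and the naive marker Zfp42 read the same in both groups on average, 12.17.

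Target genes of Pou5f1, Sox2 and Nanog were called in both directions. Of 25 measured, 1 was higher, 3 lower and 21 neither, with a median of -0.01. Lin28a, an RNA-binding protein gene, fell by 0.90 (SE 0.09), the glucose transporter gene Slc2a3 by 0.575 (SE 0.11) and Rest as above, while the ERK phosphatase gene Dusp6 rose by 0.425 (SE 0.079). Fgf4, the textbook target of the Pou5f1 and Sox2 pair, read 12.67 and 12.79 in control and 12.59 and 12.66 in knockdown cells (log2 fold change -0.105, adjusted p = 0.378, limma). Utf1, another such target, had 0.17 (adjusted p = 0.153).

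Protein partners of the factors, largely subunits of the NuRD and SWI/SNF remodelling complexes and coactivators, were counted in the same way. Of 35 measured, 1 was higher, 2 lower and 32 neither, with a median of 0.03. The NuRD subunit genes Mta2 and Mta1 went opposite ways, by 0.315 (SE 0.063) and -0.39 (SE 0.062). The telomere-associated gene Rif1, also in the pluripotency list, fell by 0.33 (SE 0.063). Among 23 relatives from the same gene families, 2 were higher, 2 lower and 19 neither, with a median of 0.105. The POU gene Pou2f3 rose by 0.87 (SE 0.12) and the grainyhead-like Grhl3 by 0.525 (SE 0.12), while Sox15, a SOX gene of stem cells, fell by 0.405 (SE 0.066) and the nuclear receptor gene Nr1d2 by 0.475 (SE 0.095). Among relatives that did not pass, Sall3 had a log2 fold change of 0.32 (adjusted p = 0.0555, limma) and Pou3f1 of 0.29. Esrra had 0.20, Sox1 0.19, Esrrg 0.17, Nr5a1 0.04, Sall1 0.02 and Tfcp2 -0.07. Positive changes were seen in 18 of the 23 relatives, or in 15 with each array centred on its median.

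Of 24 genes that carry LIF, BMP, Wnt and FGF signals to the factors, 5 were higher, 1 lower and 18 neither, with a median of 0.01. Il6st (gp130), the shared receptor subunit of LIF, read 12.31 and 12.18 in control and 11.62 and 11.67 in knockdown cells, a fall of 0.60 (SE 0.072, adjusted p = 0.01, limma). The LIF receptor gene Lifr had -0.095, Stat3 -0.265 and the STAT3 target Socs3 -0.035, none past the threshold. On the BMP side, Bmp4 rose by 0.61 (SE 0.075), its target Id1 by 0.69 (SE 0.092) and the receptor gene Bmpr1a by 0.275 (SE 0.066, adjusted p = 0.0499, limma). The other BMP genes of the list did not pass, with -0.585 for Id2, -0.23 for Smad5, -0.125 for Smad1 and 0.215 for Id3. On the Wnt side Lef1 rose by 0.80 (SE 0.093), while Axin2 had 0.38, Ctnnb1 0.085 and Gsk3b -0.225, none past the threshold. Esrrb's repressor Tcf7l1 had -0.11 (SE 0.14). On the FGF side Dusp6 rose as above. Spry4 had 0.20, Fgfr1 0.105, Fgfr2 0.015, Spry2 -0.075 and Fgf4 -0.105, none past the threshold.

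Lineage genes that the core factors are known to hold back were called in both directions. Of 23 measured, 7 were higher, 2 lower and 14 neither, with a median of 0.20, beside 12.2% called and a median of 0.03 over all genes. Only 8 of the 23 lay above the median gene, so most were read at lower levels than the factors, and the difference between the lists was not tested. The endoderm regulator Gata6 rose by 2.115 (SE 0.26), the cardiac gene Tbx20 by 1.315 (SE 0.083), the adaptor gene Dab2 by 1.12 (SE 0.23, or 0.65 when its probe sets are averaged) and Eomes, a regulator of trophoblast and mesendoderm, by 0.915 (SE 0.067). The trophectoderm and germ cell factor Tfap2c fell by 1.535 (SE 0.13) and Pax6 by 0.80 (SE 0.076). Cdx2, which Pou5f1 represses, rose by 0.35 (SE 0.065) from a low level, 8.02 and 7.93 in control to 8.31 and 8.34 in knockdown cells. After quantile normalization 5 of these genes were higher.

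Markers of other cell types were read beside the factors, since these are bulk cultures in which fewer cells of a type and less RNA per cell cannot be told apart. Some called markers recur from the lists above, so the counts are not independent. They are Gata6, Dab2 and Sox17 in primitive endoderm, Eomes, Cdx2 and Tfap2c in trophectoderm, and Foxd3 and Lef1 in primed epiblast. Of 18 primitive endoderm markers, 5 were higher and 13 neither, beside 5.00% higher and 7.19% lower among all genes tested. The mean log2 value of these markers was 9.50 and 9.31 in control and 9.81 and 10.06 in knockdown cells. Of the 15 primed epiblast markers, 4 were higher and 11 neither (10.10 and 10.07, then 10.34 and 10.13), with 2 lower when each array was centred on its median. Of 14 trophectoderm markers, 3 were higher and 2 lower (9.11 and 9.03, then 9.06 and 9.04), and of 14 fibroblast or feeder markers 1 was higher and 2 lower (8.85 and 8.87, then 8.84 and 8.81). Of 16 listed markers of 2-cell-like cells, 9 were measured, and Zscan4c, Zscan4d and Zscan4f were not among them. Of these 9, 5 were higher and 4 neither (8.13 and 8.03, then 9.23 and 8.73), and only 2 lay above the median gene. The 9 include close copies such as Usp17la, Usp17lb and Usp17lc, so they may not be separate measurements. The mean of the 8 factors was 13.17 and 13.08 in control and 13.11 and 13.14 in knockdown cells, and the groups overlapped. The part of these other cells in the factors' values was not tested. Of the 10 measured subunits of variant PRC1, Kdm2b included, 3 were higher and 2 lower; Bcorl1 rose by 0.64 and Yaf2 fell by 0.31.

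**Figure D4:**
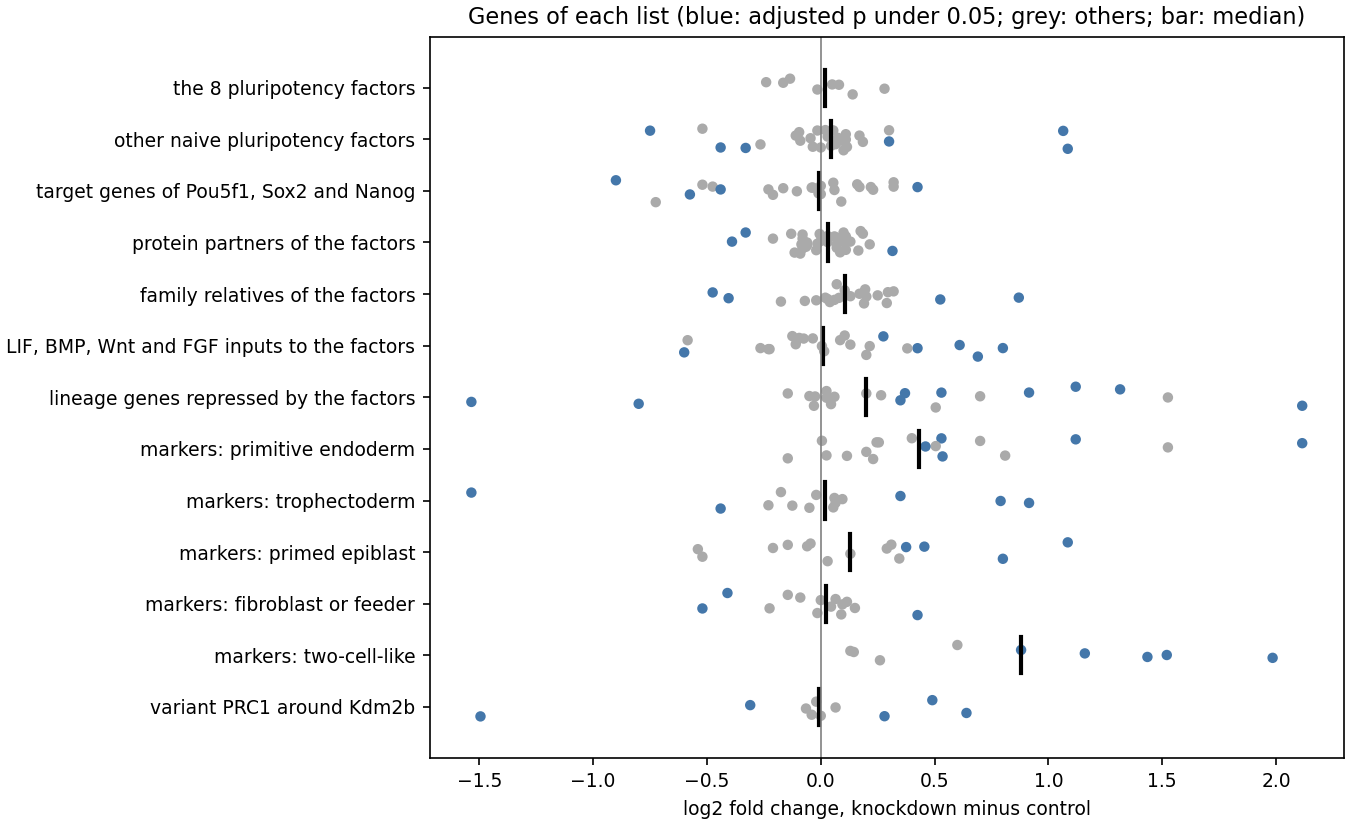
Log2 fold change, knockdown minus control, of every measured gene of each list, with 1 point a gene (blue where the adjusted p was under 0.05 in limma, grey otherwise) and a black bar for the list's median. The 8 factors lie between -0.24 and 0.28 with no blue point, while the lineage genes reach from -1.535 to 2.115.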

How the data were processed

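Total RNA was measured on Affymetrix MoGene 1.0 ST arrays, 2 a group. The deposited table gives log2 expression for 35557 probe sets, made by the authors. The submitters' processing notes name Affymetrix Expression Console. Not given in the sources used here: its version, the summary method and the scaling between arrays. The log2 scale was read from the range of the values. Precision is limited by the number of arrays.

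Probe sets with 1 symbol (21789) were named through the platform annotation and Entrez IDs in RefSeq (GRCm38.p6), of which 21698 matched. Per gene the probe set with the highest mean was kept (19938 genes). Groups came from the sample titles. limma 3.58.1 in R 4.3.3 (lmFit and eBayes, group as the only term, two-sided) was fitted on all genes with Benjamini-Hochberg adjustment over all of them, and the procedure was tested on simulated data. SE and 95% intervals are from that fit.

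The 8 factors, the gene lists and the rules were chosen with earlier results of these data known. The text names the 8 factors, Kdm2b and up to 4 genes past the threshold of each list, marker lists included (Eomes is a trophectoderm marker). Bmpr1a, Id2, Id3, Smad1, Smad5, Zfp42, Klf4, Fgf4, Utf1, Cdx2, Pax6 and Otx2 were picked for their roles after their values were seen. So were Lifr, Stat3, Socs3, Tcf7l1, Usp17lc, the neighbouring genes, and the relatives and the Wnt and FGF genes that did not pass. Sox17 is named because it recurs between lists. The alternatives tried were a block for the replicate number, each array left out, quantile normalization, median centring, removal of dim genes, other handling of probe sets, and an intensity trend or robust prior.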

Additional observations from a re-analysis of the deposited data

How the results depend on the processing

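None of the 8 factors passed the threshold in limma under any of the 12 alternatives (the replicate number as a block, each array left out, 2 scalings, dim genes removed, 2 treatments of probe sets, 2 priors). With the block or an array left out, even Kdm2b did not pass, so those settings say little about the factors' calls. Only the left-out arrays and the 2 scalings could turn the sign of a factor's change, since the other alternatives leave its fold change as it was. The sign stayed for Pou5f1, Sox2, Nanog, Esrrb, Tfcp2l1 and Nr5a2. It turned for Sall4 without control replicate 1 and without knockdown replicate 2 (range -0.095 to 0.065 with each array left out) and for Nr0b1 without control replicate 2 (range -0.005 to 0.105), both with intervals around 0. The lowest adjusted p was 0.0511, for Nr5a2. With single arrays left out, the median of the 8 lay between -0.05 and 0.085. The 997 higher and 1434 lower genes became 0 and 0 with any array left out, when 1 residual degree of freedom remains (1660 to 2135 higher and 1734 to 2172 lower at an unadjusted p under 0.05). They also became 0 and 0 with the replicate block (2733 and 2678 at an unadjusted p under 0.05), where Kdm2b had an adjusted p of 0.127. Deviations of same-numbered arrays from their group means correlated at 0.095 over 19938 genes. With 2 arrays a group, both replicate numbers give this same value. It does not show whether same-numbered arrays shared a culture or a batch.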

Other observations

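The genes next to each factor in RefSeq, the nearest 2 measured protein-coding genes on each side, were read after the factors' values were seen. Of these neighbours, the largest change was that of Dppa3, beside Nanog. Dppa3, known from naive stem cells and the germline and read here by the brighter of its 2 probe sets at a low level, stood at 8.47 and 8.53 in control and 7.64 and 7.39 in knockdown cells (log2 fold change -0.985, adjusted p = 0.0068, limma), and the glucose transporter gene Slc2a3 at 13.89 and 13.82, then 13.12 and 13.44 (-0.575, adjusted p = 0.0298). Both lay below their controls while Nanog, between them, lay above its own. Gdf3, a TGF-beta family ligand gene on the same side as Dppa3, had a log2 fold change of 0.06 and overlapped between groups. Beside Sall4, Nfatc2, a calcium-regulated transcription factor gene, rose by 0.61 (SE 0.1), and beside Pou5f1 the class I histocompatibility gene H2-Q4, which has close relatives on the array, fell by 0.585 (SE 0.067). Beside Tfcp2l1, the activin subunit gene Inhbb had 0.50 (SE 0.16, adjusted p = 0.101, limma). None of the neighbours of Sox2, Esrrb, Tfcp2l1, Nr5a2 and Nr0b1 passed the threshold. No neighbour other than Dppa3, Slc2a3, Nfatc2 and H2-Q4 passed it, and 12.2% of all genes tested did. Whether neighbours passed more often than other genes was not tested.

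Only Tfcp2l1 and Nr5a2 spanned at least 0.3 log2 units over the 4 arrays, so likeness to other genes was read for these. The genes most like Tfcp2l1 were Zglp1 and Otud7b (Pearson r = 0.9999 and 0.9998 over 4 arrays), and those most like Nr5a2 were Pcsk7 and Tbr1 (0.9999 each). With 4 points such values are common. Of 6150 genes with that span, 99 reached r = 0.99 with Tfcp2l1 and 69 with Nr5a2.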
